A study of Mus musculus with 8 samples.

Results

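The BCL2 family decides whether a cell keeps its mitochondria intact or opens them and dies. Survival proteins hold the pore-forming effectors in check, and BH3-only proteins bind the survival proteins or the effectors and set the pore free. In T cells the balance between BIM, the BH3-only protein made from *Bcl2l11*, and BCL2 is known to govern how many cells are removed when a response contracts, and survival cytokines such as IL-7 are known to sustain BCL2. To follow this machinery in LSD1-deficient cells, 10 genes of the family were taken by symbol from the gene counts of tumor-infiltrating CD8+ T cells: the survival genes *Bcl2*, *Bcl2l1* and *Mcl1*, the BH3-only genes *Bcl2l11*, *Bbc3*, *Pmaip1*, *Bid* and *Bad*, and the effectors *Bax* and *Bak1*. All 10 of 10 symbols were found among 55335 genes, and all 10 were among the 15378 genes with enough counts to be tested.

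The cells were CD45.2+TCRβ+CD8+CD44+PD-1+ T cells sorted from subcutaneous MC38 tumors, a mouse colon carcinoma line, in C57BL/6 mice of 6 to 10 weeks. WT samples came from Lsd1f/f mice, in which both copies of the LSD1 gene carry the floxed allele, and KO samples came from Cd4-Cre+Lsd1f/f mice, in which Cre driven by *Cd4* deletes that allele in developing T cells. There were 4 samples per group, S1 to S4 for WT and S5 to S8 for KO. A WT sample pooled 2 mice, whereas a KO sample held the cells of 1, so pooling and genotype cannot be told apart. The collection day was given as 18 in the protocol and 14 in the design text, and 10000 to 20000 sorted cells went into each rRNA-depleted, directional RNA library. Libraries held 11657807 to 19007676 counts in WT and 11858010 to 30295406 in KO, with S8 the deepest. The 10 genes took 0.112 to 0.123% of the counts in WT samples and 0.0839 to 0.101% in KO samples.

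The targeted gene, *Kdm1a*, was read first. It was at 44.6, 47.2, 42.7 and 44.9 CPM (counts brought to one library size by TMM factors) in WT samples S1 to S4 and at 25.2, 30.5, 32.0 and 34.8 CPM in KO samples S5 to S8. The groups did not overlap, and the log2 fold change was -0.55 (SE 0.14, edgeR quasi-likelihood test, adjusted p = 0.0163), a partial loss of under 1.5-fold. Gene counts include exons outside the floxed part. CD8 T cell markers (9 of 9 tested) summed to 3738 to 4489 CPM in WT and 3473 to 4251 CPM in KO samples. Within that list *Cd44* rose from 433 ± 39.7 to 785 ± 136 CPM (SD, n = 4 each) and *Cd8b1* fell from 346 ± 30.1 to 264 ± 23.9 CPM (SD, n = 4 each), at adjusted p values of 0.000107 and 0.0158 in the edgeR fit, and 4 of 9 were lower and 1 higher at an unadjusted p under 0.05. Macrophage and monocyte markers moved with the genotype: 11 of the 13 tested by edgeR fell, and DESeq2 called 12 of all 14 listed lower. The 14 genes of that list summed to 301, 350.2, 849 and 393 CPM in S1 to S4 and to 85.4, 101, 66.2 and 59.3 CPM in S5 to S8. Of 4 MHC class II genes 3 fell, and the list summed to 209 to 699 CPM in WT and 177 to 250 CPM in KO samples. The neutrophil markers *S100a9* and *Retnlg* and the epithelial markers *Krt8* and *Krt19* had no count in any sample, and the summed B cell, fibroblast, neutrophil and epithelial markers stayed at or under 6.12 CPM. A difference below in bulk RNA can be fewer cells of a type or less RNA per cell, which cannot be told apart.

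The start regions of the pair of family genes that fell are shown first, because BIM and BCL2 are direct partners and the messages of both were lower in KO cells. The sequences are the 250 bases before the RefSeq transcription start on GRCm38.p6, printed 5′ to 3′ on the gene's strand, with capitals marking a match to the FOXO-type motif TGTTTAC on either strand. *Bcl2l11* lies on the plus strand (chr2:128125788-128126037), and *Bcl2* on the minus strand (chr1:106714291-106714540).
Bcl2l11: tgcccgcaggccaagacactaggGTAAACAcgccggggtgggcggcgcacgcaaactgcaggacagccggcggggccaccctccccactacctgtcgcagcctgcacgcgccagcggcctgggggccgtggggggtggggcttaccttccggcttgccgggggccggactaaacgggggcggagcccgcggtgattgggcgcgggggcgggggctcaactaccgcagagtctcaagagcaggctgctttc
Bcl2: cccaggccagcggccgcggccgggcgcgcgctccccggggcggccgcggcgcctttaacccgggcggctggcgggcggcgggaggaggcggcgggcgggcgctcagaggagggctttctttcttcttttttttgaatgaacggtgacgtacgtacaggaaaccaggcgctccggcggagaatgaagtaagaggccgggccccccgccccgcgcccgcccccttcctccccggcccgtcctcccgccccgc
The *Bcl2l11* region held one match, on the opposite strand as GTAAACA, whose first base lies at position -227 from the start. The window that was searched, from 250 bases before to 50 bases after the start, held no match in *Bcl2* and none at the second RefSeq start of *Bcl2l11*. TGTTTAC on either strand was present in 3.65% of 32851 windows of that length. A window of *Bbc3*, whose message did not pass the test (edgeR, adjusted p = 0.541), also held a match, at position -167. Windows of the other family genes held none, and *Pmaip1* was not read. The core of TCF and LEF sites, CTTTG on either strand, was present in 53.9% of the windows and in none of the 3 windows of *Bcl2l11* and *Bcl2*. The windows of *Bax*, *Bak1* and *Bid* held it, in *Bak1* only after the start, at position 34. *Bcl2l1* and *Bad* held it in some of their windows only, and the windows of *Mcl1* and *Bbc3* did not hold it. The windows of *Bcl2l11* and *Bcl2* were 71.0 and 76.0% G and C with 27 and 44 CpG, beside a median of 52.67% and 7 CpG over all windows. The shares of 3.65% and 53.9% were taken over windows of any G and C content, not over windows as rich as these. A match is a stretch of letters and does not show binding, and no protein was measured here.

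In the comparison of KO with WT cells, the death gene *Bcl2l11* and the survival gene *Bcl2* fell together, *Pmaip1* rose by a smaller step, and 7 genes did not pass the test. With an adjusted p under 0.01 and a change of more than 1.5-fold required, 2 of 10 genes were called lower and 0 higher, beside 1.99% of all tested genes called lower (306 genes) and 2.91% called higher (447 genes). Of the 10, 4 were lower and 1 was higher at an unadjusted p under 0.05, beside 12.1% of tested genes lower and 12.4% higher. DESeq2 called 1 lower and 0 higher, beside 2.69% of 18749 genes lower and 3.27% higher. At an adjusted p under 0.05 with no limit on the fold, *Bcl2* and *Bcl2l11* were lower and *Pmaip1* was higher, beside 4.98% of tested genes lower and 6.31% higher. The samples of the groups did not overlap for these 3 genes, as for 17.3% of tested genes. The median log2 fold change was -0.16 over the 10 genes (-0.94 to 0.52), beside -0.01 over all tested genes. With 10 genes these counts are a description of the list.

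**Figure D1:**
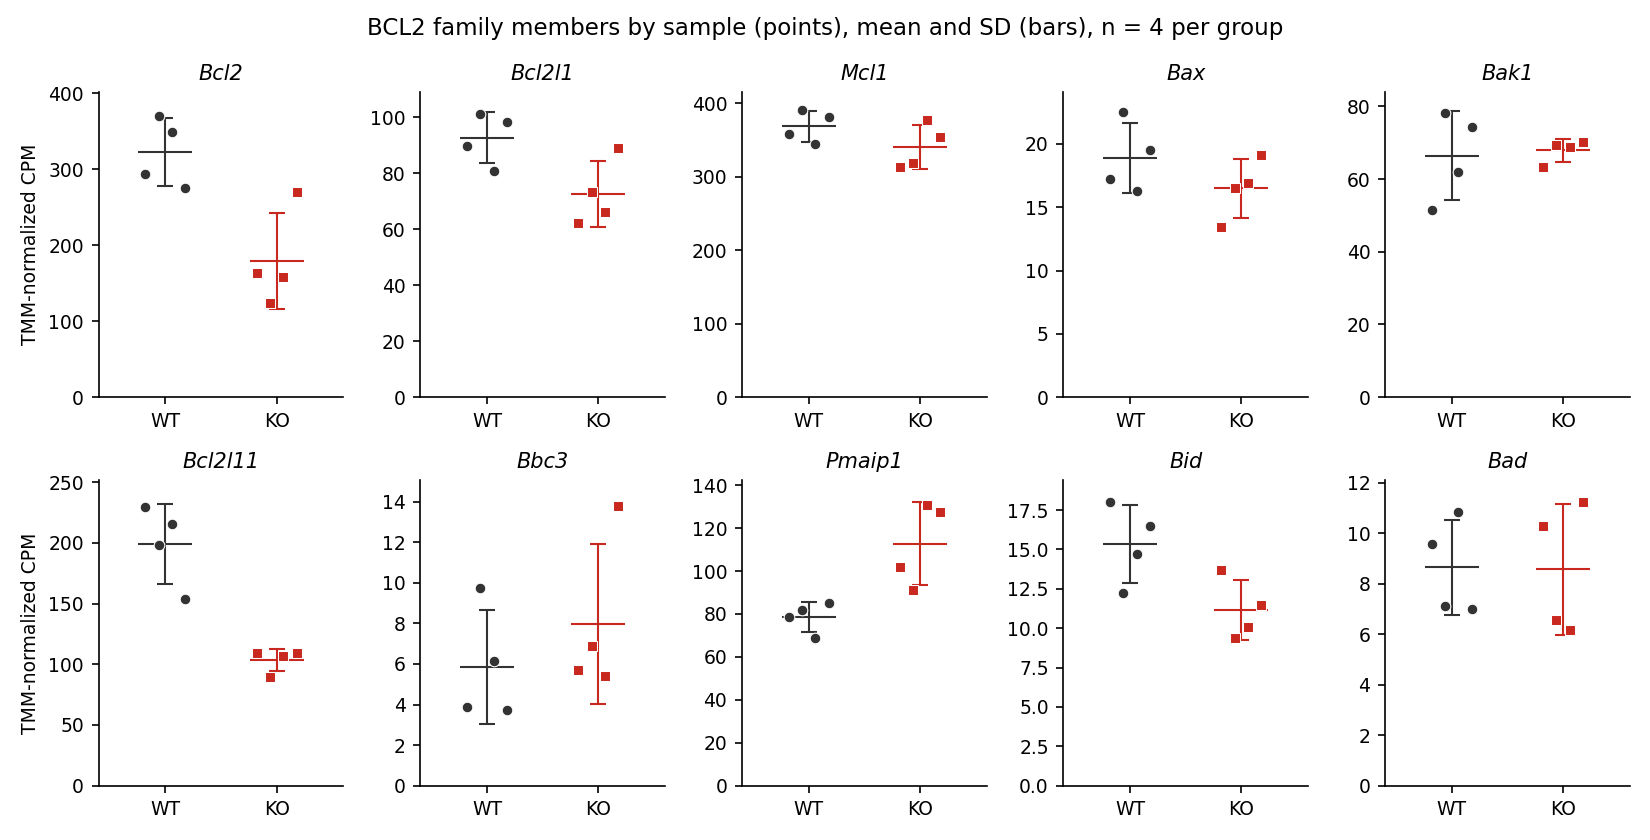
TMM-normalized CPM (y axis, from 0) of the 10 genes in each of 4 WT (black circles) and 4 KO (red squares) samples, with horizontal lines for the mean and bars for the SD. The groups are apart for *Bcl2*, *Bcl2l11* and *Pmaip1*, and the highest KO value of *Bcl2*, 270.4 CPM in S8, lies just under the lowest WT value of 275 CPM.

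*Bcl2l11* (ENSMUSG00000027381.16, chr2:128126038-128162547, plus strand) encodes BIM, which binds all of the main survival proteins and can activate the effectors. Its message stood at 230, 198, 215 and 153 CPM in S1 to S4 and at 109, 89.5, 107 and 109 CPM in S5 to S8. Every KO sample lay under every WT sample, and the KO samples lay close together while the WT samples were spread more widely. WT cells averaged 199 ± 33.2 CPM and KO cells 104 ± 9.40 CPM (SD, n = 4 each), 1.92-fold less of the message, with a log2 fold change of -0.94 (SE 0.12, 95% interval -1.20 to -0.68, edgeR quasi-likelihood test, adjusted p = 7.62e-05). The exact two-sided permutation test gave p = 0.0286, the smallest that 4 against 4 samples allow. Leaving out each sample in turn moved the log2 fold change between -1.05 and -0.86 and the adjusted p between 2.03e-05 and 0.000540. The counts behind these values ranged from 1108 to 3955 per library. *Bcl2l11* was highest in S1, which had the least macrophage RNA of the WT samples, and lay between S1 and S2 in S3, which had the most. The part of macrophage RNA in this difference, and in those of the other genes that fell, was not tested.

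The other BH3-only genes differed in direction. *Pmaip1* (ENSMUSG00000024521.8, chromosome 18 from 66458533 to 66465565, plus strand) encodes NOXA, which binds MCL1 and marks it for removal. It was at 78.7, 81.6, 68.7 and 85.0 CPM in S1 to S4 and at 102, 91.0, 131 and 127 CPM in S5 to S8. The 4 KO samples were all higher than the 4 WT samples, with the nearest pair, S6 and S4, close together. The mean rose from 78.5 ± 7.01 to 113 ± 19.4 CPM (SD, n = 4 each), a log2 fold change of 0.52 (SE 0.13, 95% interval 0.26 to 0.79, edgeR quasi-likelihood test, adjusted p = 0.0123; exact permutation p = 0.0286). The fold of 1.44 lies under the threshold of 1.5. Without S6 the fold change was 0.62 on the log2 scale and the gene was called (adjusted p = 0.00566), and without S7 the adjusted p was 0.0543.

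*Bid*, whose protein links death receptors to mitochondria once caspases cut it, was at 12.2 to 18.0 CPM in WT and 9.37 to 13.7 CPM in KO samples. The groups overlapped, and the log2 fold change of -0.46 (SE 0.21, 95% interval -0.91 to -0.00) did not pass the test (edgeR, adjusted p = 0.202; exact permutation p = 0.0571). The counts of *Bid* are uncertain: 17.7% of its exon bases lie under exons of *Bcl2l13* on the other strand, which collected 414% as many counts, and the strand setting of the counting was not stated. *Bcl2l13* itself was lower in all 4 KO samples, at 61.5 ± 6.01 CPM in WT and 47.2 ± 7.71 CPM in KO cells (SD, n = 4 each), with an adjusted p of 0.0877 in the edgeR fit. *Bad*, whose protein ties survival to growth factor signals, was at 7.01 to 10.9 CPM in WT and 6.18 to 11.3 CPM in KO samples, with a log2 fold change of -0.00 (95% interval -0.61 to 0.60). Its exons are overlapped over 20.5% by *Gpr137* on the other strand, which collected 117% as many counts, so its counts are uncertain too. Per length in WT cells the samples of *Bad* and *Bbc3* overlapped, and *Bbc3*, which encodes the p53 target PUMA, had the lowest mean of the 10. It read 3.89, 9.75, 6.12 and 3.71 CPM in S1 to S4 and 5.71, 6.87, 5.43 and 13.8 CPM in S5 to S8. Its highest value came from S8 and its spread within each group was wider than the gap between the groups. The log2 fold change was 0.44 (95% interval -0.37 to 1.26, edgeR, adjusted p = 0.541), and 0.03 without S8. The intervals of *Bid*, *Bad* and *Bbc3* reach beyond 1.5-fold, so that these data do not exclude a change of that size. *Bad* and *Bbc3* had 45 to 392 counts per library.

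Of the survival genes, one fell. *Bcl2* (ENSMUSG00000057329.7, chr1:106538178-106714274, minus strand) encodes the founding survival protein of the family, which sequesters BIM. It was at 294, 369.6, 349 and 275 CPM in S1 to S4 and at 163, 124, 158 and 270.4 CPM in S5 to S8. The KO values of S5, S6 and S7 were far under every WT value, and S8 lay beside the lowest WT sample without crossing it. The mean fell from 322 ± 44.7 to 179 ± 63.4 CPM (SD, n = 4 each), which is 1.80-fold lower (log2 fold change -0.84, SE 0.18, 95% interval -1.22 to -0.46, edgeR quasi-likelihood test, adjusted p = 0.00500). The exact permutation test gave p = 0.0286, the smallest possible. The call of *Bcl2* was less firm than that of *Bcl2l11*. Its adjusted p rose above 0.01 without S2 (0.0237), S3 (0.0195), S5 (0.0150), S6 (0.0177) or S7 (0.0224), and it was 0.0201 by DESeq2. Without S8 the log2 fold change was -1.12 with an adjusted p of 2.98e-05. In none of the 8 fits with a sample left out did the adjusted p pass 0.05.

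*Bcl2l1* (chr2:152780668-152831728, minus strand), which encodes BCL-XL, read 89.8, 101, 80.9 and 98.4 CPM in S1 to S4 and 62.0, 73.1, 66.3 and 89.0 CPM in S5 to S8. As with *Bcl2*, S8 was the KO sample nearest to the WT level, and here it lay inside the WT range. The means were 92.6 ± 9.15 and 72.6 ± 11.8 CPM (SD, n = 4 each), with a log2 fold change of -0.35 (SE 0.13, 95% interval -0.62 to -0.08) that did not pass the test over all genes (edgeR, adjusted p = 0.0893; exact permutation p = 0.0571). The adjusted p ran from 0.0255 without S8 to 0.239 without S2. *Mcl1* (chr3:95658788-95663176, plus strand) encodes a short-lived survival protein on which T cells are known to depend. It was at 345 to 391 CPM in WT and 312 to 377 CPM in KO samples, and the groups overlapped. The log2 fold change of *Mcl1* was -0.12 (SE 0.094, 95% interval -0.31 to 0.08, edgeR, adjusted p = 0.504), an interval that lies within 1.5-fold in both directions.

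The effectors did not pass the test. *Bak1* was at 66.5 ± 12.1 CPM in WT and 67.9 ± 3.12 CPM in KO cells (SD, n = 4 each), with a log2 fold change of 0.03 (95% interval -0.25 to 0.31). *Bax* was at 18.9 ± 2.75 and 16.5 ± 2.32 CPM (SD, n = 4 each), with a log2 fold change of -0.20 (95% interval -0.59 to 0.20, which reaches just past 1.5-fold lower). Of these 2 genes, 0 were called or reached an unadjusted p under 0.05 by edgeR, and DESeq2 called 0. The products of both form the pore in the outer mitochondrial membrane, and for *Bak1* the interval lies within 1.5-fold.

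**Figure D2:**
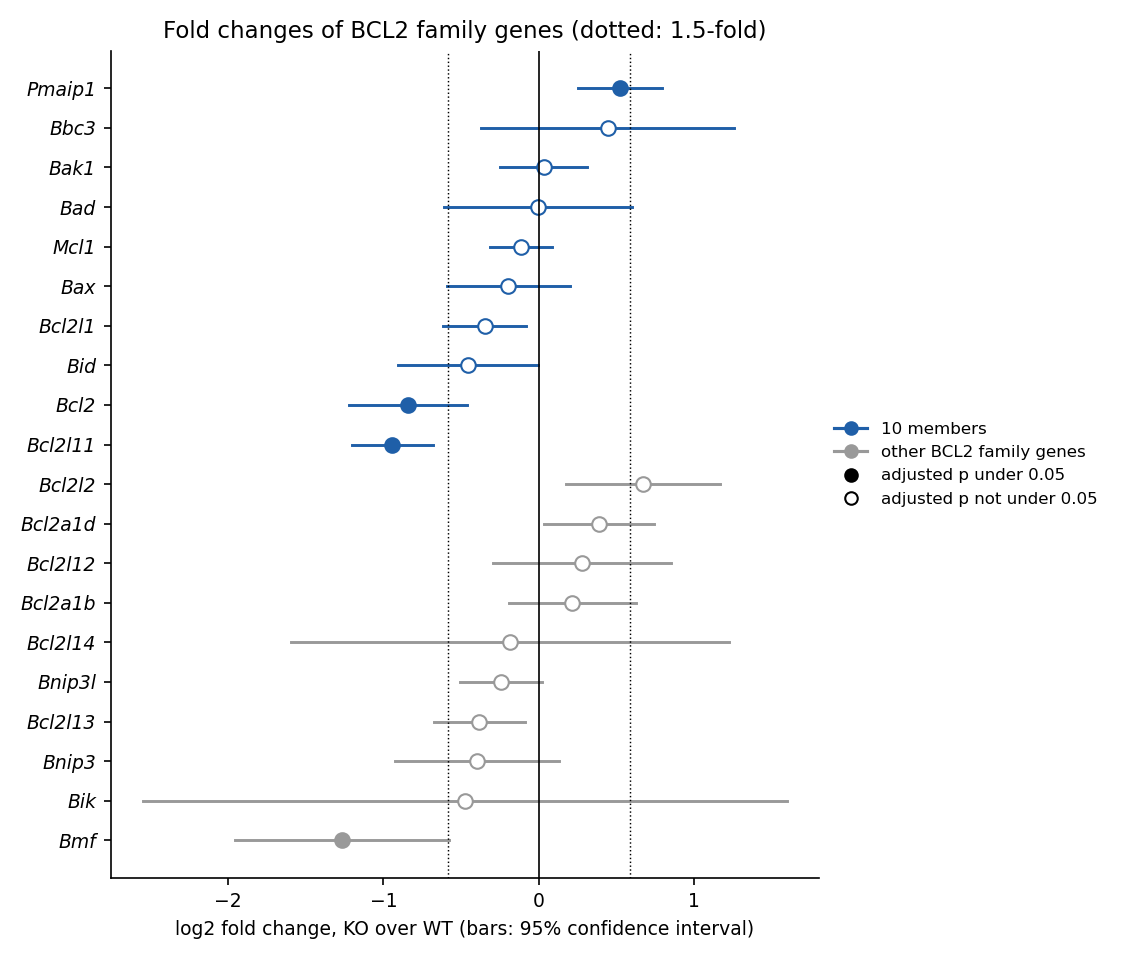
Log2 fold change of KO over WT (x axis) with its 95% interval for the 10 genes (blue) and 10 other tested BCL2 family genes (gray), with filled points for an adjusted p under 0.05 and dotted lines at 1.5-fold. *Bcl2l11* at -0.94 and *Bcl2* at -0.84 lie to the left, *Pmaip1* at 0.52 to the right, and *Bmf* at -1.27 is the only filled point among the other family genes.

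Because survival proteins act by binding BH3-only proteins, the count of each survival gene was divided by that of *Bcl2l11* within each sample, which takes the library scaling out. The log2 ratio of *Bcl2* to *Bcl2l11* was 0.35, 0.90, 0.70 and 0.84 in the WT samples S1 to S4, against 0.58, 0.47, 0.56 and 1.31 in the KO samples S5 to S8. The groups overlapped, with means of 0.70 ± 0.25 in WT and 0.73 ± 0.39 in KO cells (SD, n = 4 each), while both messages were lower in KO cells. The ratio of *Mcl1* to *Bcl2l11* was 0.64, 0.98, 0.68 and 1.31 in S1 to S4, against 1.52, 1.83, 1.82 and 1.70 in S5 to S8. Here every KO sample exceeded every WT sample, and the mean was 0.81 higher on the log2 scale (0.90 ± 0.31 against 1.72 ± 0.14). The ratio of *Bcl2l1* to *Bcl2l11* averaged -1.09 ± 0.36 in WT and -0.52 ± 0.27 in KO cells, and the groups overlapped. These are ratios of RNA counts of genes of unequal length and are given without a test, since they are built from the fold changes above.

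**Figure D3:**
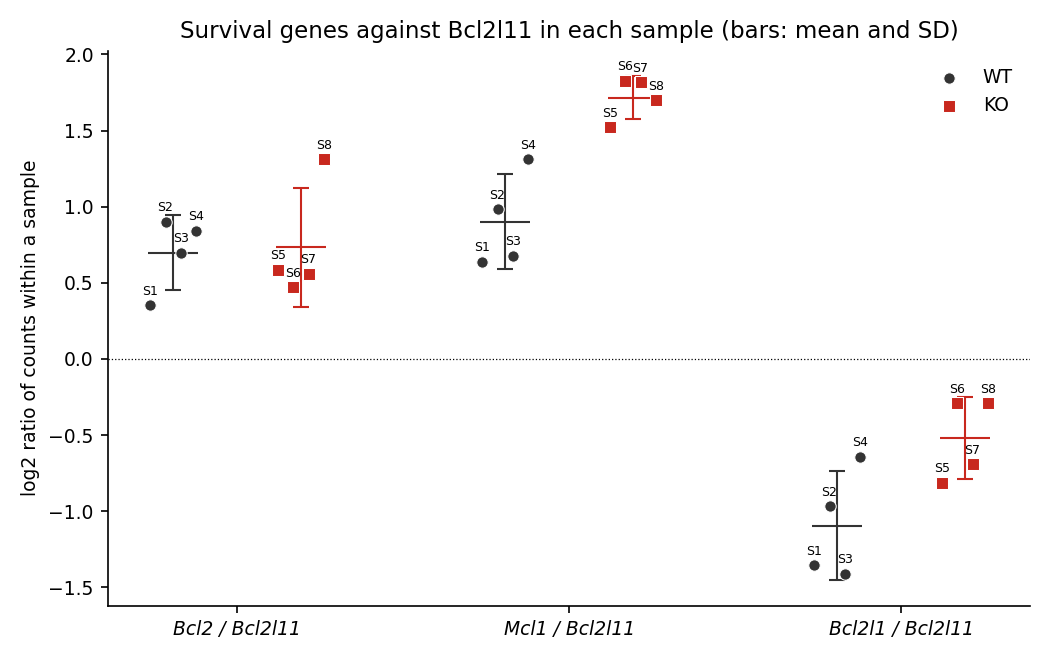
Log2 ratio of counts within a sample (y axis) of *Bcl2*, *Mcl1* and *Bcl2l1* to *Bcl2l11* in each WT (black circles) and KO (red squares) sample, with lines for the mean and bars for the SD. The WT and KO samples overlap for *Bcl2* and *Bcl2l1* and are apart for *Mcl1*, where the KO samples lie between 1.52 and 1.83.

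Per length of exon, *Mcl1* led in both groups, and the second gene stood apart from the next only in KO cells. Lengths join all annotated exons of a gene, which need not be those used in these cells. In WT cells *Mcl1* led at 108 ± 6.17 CPM per kb, followed by *Bcl2* at 35.1 ± 4.89, *Pmaip1* at 28.7 ± 2.57, *Bak1* at 27.6 ± 5.05, *Bcl2l11* at 24.8 ± 4.13 and *Bcl2l1* at 20.2 ± 1.99 (SD, n = 4). Samples of neighboring genes overlapped from *Bcl2* down to *Bcl2l1*, so their order is not resolved, while *Bax* at 12.0 CPM per kb stood apart from the genes above and below it. *Bid*, *Bad* and *Bbc3* closed the order at 4.32, 3.38 and 2.76 CPM per kb, and neighbors among them overlapped. In KO cells *Mcl1* still led at 99.5 ± 8.93 CPM per kb, and *Pmaip1* came next at 41.3 ± 7.12, apart from *Bak1* at 28.2 ± 1.30. *Bcl2* at 19.5 ± 6.92, *Bcl2l1* at 15.8 ± 2.58 and *Bcl2l11* at 12.9 ± 1.17 CPM per kb followed without a gap between neighbors. Of the summed level of the 10 genes per length, *Pmaip1* took 10.8 ± 0.851% in WT and 17.3 ± 1.49% in KO cells, *Bcl2* 13.2 ± 1.58% and 8.09 ± 2.10%, *Bcl2l11* 9.34 ± 1.81% and 5.44 ± 0.511%, and *Mcl1* 40.4 ± 1.16% and 41.9 ± 2.41% (SD, n = 4 each).

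**Figure D4:**
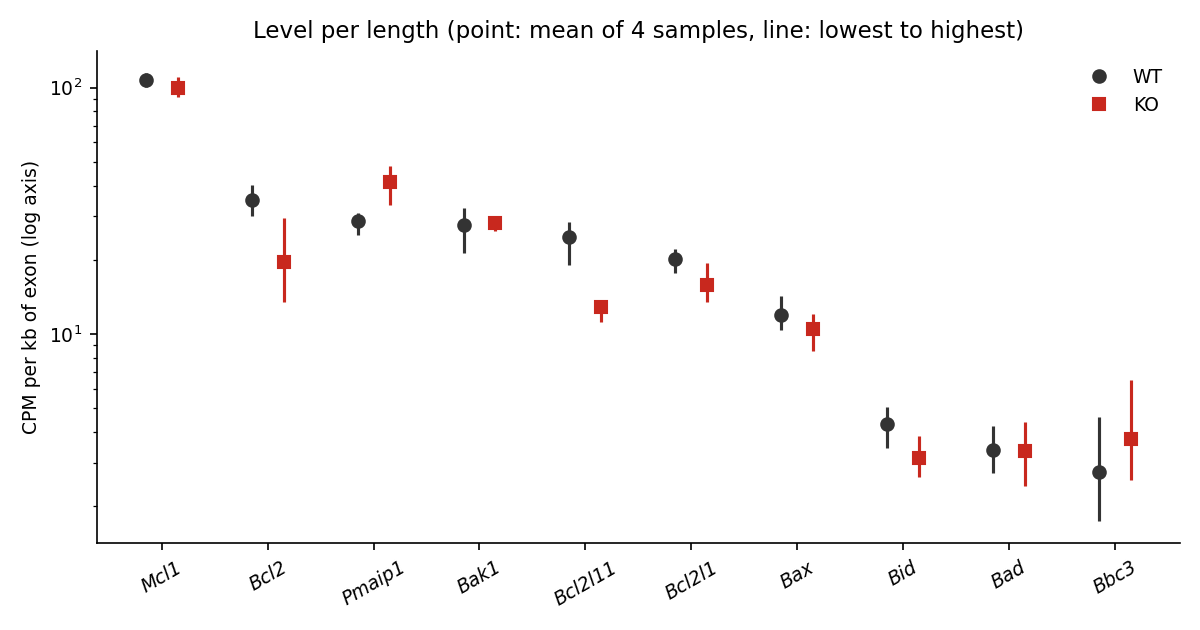
Level per length (y axis, CPM per kb of exon, log axis) of the 10 genes in WT (black circles) and KO (red squares) cells, with points for the mean of 4 samples and lines from the lowest to the highest sample. *Mcl1* is at the top in both groups, at 108 and 99.5 CPM per kb, and in KO cells *Pmaip1* is above *Bcl2*, at 41.3 against 19.5 CPM per kb.

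Samples also varied within their groups. After each group mean was subtracted, the 5 genes whose log2 CPM followed *Bcl2l11* most closely over the 8 samples, of 4898 genes with a mean log2 CPM above 5, were *Fgd3* (r = 0.95), *Aff1* (r = 0.95), *Frmd4b* (r = 0.94), *Llgl1* (r = 0.94) and *Edc3* (r = 0.94). Their own log2 fold changes ran from -0.03 to 0.53 and none passed the test (edgeR, adjusted p from 0.0685 to 0.906). Among the family genes, *Mcl1* and *Pmaip1* had a centred r of 0.90, *Bcl2* and *Bbc3* of 0.79, and *Bcl2* and *Bcl2l11* of 0.45. The 5 genes were picked as the highest of 4898 over only 8 samples, so a high r follows in part from the choice. All these values come from 8 libraries that share their depth and scaling between genes and are given as descriptions.

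The rest of the death pathway was read from lists of known genes. Of 14 other BCL2 family genes 10 were tested, and edgeR called 0 higher and 0 lower, with 2 higher and 2 lower at an unadjusted p under 0.05. DESeq2 called 1 lower. *Bcl2a1a* and *Bcl2l10* had too few counts, and *Hrk* and *Bok* had no count in any sample. *Bmf*, a BH3-only gene named here after its values were seen, was at 14.2, 6.81, 13.9 and 12.3 CPM in S1 to S4 and 7.02, 5.74, 3.76 and 3.17 CPM in S5 to S8. It fell, with a log2 fold change of -1.27 (SE 0.33, edgeR quasi-likelihood test, adjusted p = 0.0172), although S2 lay just under S5. *Bcl2l2*, a survival gene that encodes BCL-W, was at 10.1 ± 3.21 CPM in WT and 16.1 ± 2.05 CPM in KO cells (SD, n = 4 each), with an adjusted p of 0.0782 in the edgeR fit. The reads of *Bcl2a1b* and *Bcl2a1d*, near-identical copies that encode A1, may have been split by the counting, and neither passed the test.

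Of 13 genes of the mitochondrial caspase pathway, edgeR called 0, with 1 higher and 3 lower at an unadjusted p under 0.05, and DESeq2 called 1 lower. At an adjusted p under 0.05 with no limit on the fold, DESeq2 had 2 lower. By edgeR the gene under that limit was *Htra2*, a mitochondrial protease that blocks inhibitors of caspases once released (named after its values were seen). It was at 23.6 ± 5.51 CPM in WT and 13.0 ± 3.17 CPM in KO cells (SD, n = 4 each), with a log2 fold change of -0.86 (edgeR quasi-likelihood test, adjusted p = 0.0170). *Casp9* and *Apaf1*, whose products assemble once cytochrome c leaves the mitochondria, had log2 fold changes of 0.06 and -0.15 and did not pass the test. Of 9 death receptor genes 1 was called higher: *Fas*, the receptor for FAS ligand, which activates caspase-8 and through it BID. *Fas* was at 13.4, 15.2, 13.5 and 14.4 CPM in S1 to S4 and at 36.0, 29.5, 28.0 and 35.8 CPM in S5 to S8, a log2 fold change of 1.19 (SE 0.16, edgeR quasi-likelihood test, adjusted p = 0.000122). *Cflar*, which encodes the caspase-8 inhibitor FLIP and is named after its values were seen, rose from 175 ± 7.90 to 228 ± 25.5 CPM (SD, n = 4 each), a log2 fold change of 0.38 (edgeR quasi-likelihood test, adjusted p = 0.0200). The receptor and its brake were both higher in KO cells, while *Fadd*, *Casp8* and *Bid* between them and the mitochondria did not pass the test.

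Of 18 known regulators of the family 1 was called. *Il7r*, the receptor chain for IL-7, was at 185, 162, 172 and 217 CPM in S1 to S4 and at 411, 456, 484 and 345 CPM in S5 to S8 (log2 fold change 1.20, SE 0.12, edgeR quasi-likelihood test, adjusted p = 4.65e-06). *Il7r* was higher and *Bcl2*, a gene that IL-7 signals are known to sustain, was lower in KO samples. In S8, *Il7r* was lowest of the KO samples and *Bcl2* highest, while *Bcl2* was at 163, 124 and 158 CPM in S5 to S7. The IL-7 signal itself was not measured, and a link between these genes was not tested. The FOXO factors *Foxo1* and *Foxo3*, known activators of *Bcl2l11*, had log2 fold changes of 0.15 and -0.18, and *Stat5a* and *Stat5b*, which act below IL-7, had -0.34 and 0.12. None of these 4 passed the test, with adjusted p from 0.0770 to 0.556 in the edgeR fit. *Stat5a* was at 76.9 to 99.8 CPM in WT and 58.0 to 73.6 CPM in KO samples, without overlap, as for 17.3% of tested genes. The groups overlapped for *Foxo1*, *Foxo3* and *Stat5b*.

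**Figure D5:**
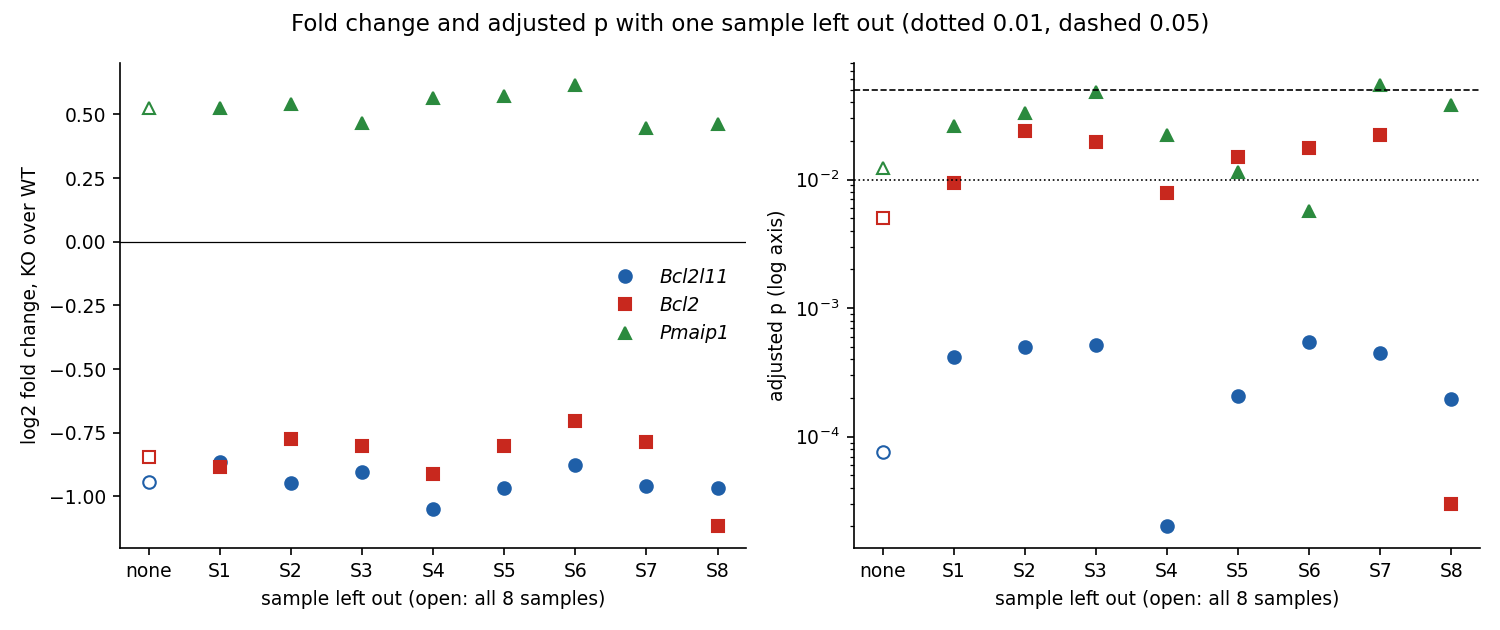
Log2 fold change (left) and adjusted p on a log axis (right) of *Bcl2l11* (blue circles), *Bcl2* (red squares) and *Pmaip1* (green triangles) with all 8 samples (open points) and with the sample on the x axis left out (filled points); lines mark adjusted p values of 0.01 and 0.05. *Bcl2l11* stays under 0.01 throughout, *Bcl2* lies between 0.01 and 0.05 in 5 of 8 fits, and *Pmaip1* is above 0.05 without S7.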

How the data were processed

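The deposited values are raw counts of paired reads per GENCODE gene, which the authors obtained with STAR (GRCm38) and featureCounts from rRNA-depleted directional libraries, with no strand setting stated. Columns S1 to S4 were taken as WT and S5 to S8 as KO from the study's principal component plot. Of 55335 gene IDs 55154 matched GENCODE M21, which gave positions, exon lengths and overlaps. Totals of 11657807 to 30295406 make 3 counts worth 0.106 to 0.25 CPM. This precision covers counting error only, and p-values set the difference between groups against the spread between samples.

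Genes were tested with edgeR 4.0.16 in R 4.3.3 (filterByExpr, TMM, glmQLFTest, Benjamini-Hochberg over 15378 genes). A call required an adjusted p under 0.01 and more than a 1.5-fold change. The SE was the size of the log2 fold change divided by the square root of F. Exact two-sided permutation tests used 70 arrangements of log2 CPM with a prior count of 2. Alternatives included DESeq2 1.42.0, GC offsets, other scalings and filters, and leaving out each sample. Fits were tested on simulated data. Replicates of a group differed beyond counting noise (median chi-square 4.90 to 8.56 against 0.455 in 12 pairs). Promoters came from RefSeq (GRCm38.p6), where 9 of 10 symbols matched. The members and lists were chosen with earlier results of these data known. Named genes were the members, *Kdm1a*, list genes that were called and the 5 closest to *Bcl2l11*, and other list genes were named after their values were seen.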

Additional observations from a re-analysis of the deposited data

Results flagged for a closer look

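Among 20 groups of 4 values (10 genes in WT and in KO samples), chance is set to mark about 1 in 20. One was marked. In KO samples *Bcl2l11* was at 89.5 CPM in S6 and at 107 to 109 CPM in S5, S7 and S8, so that the gap from S6 to the nearest sample took up 0.910 of the range of the group on the log2 CPM scale. Without S6 the log2 fold change of *Bcl2l11* was -0.88.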

How the results depend on the processing

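*Bcl2l11* kept its call in 18 of 19 alternatives and *Bcl2* in 12 of 19, and neither changed direction. Among the 19 was the main fit with a looser limit (adjusted p under 0.05), at which a call could not be lost. With a test against a fold of 1.5 (glmTreat), 165 genes were called higher and 130 lower, and 0 members lower (adjusted p = 0.0365 for *Bcl2l11* and 0.375 for *Bcl2*). Beside 447 genes higher and 306 lower in the main fit, 642 were higher and 531 lower with every gene of at least 1 count. The likelihood ratio test gave 617 higher and 481 lower. DESeq2 gave 614 higher and 504 lower, and called 1 member lower. At an adjusted p under 0.05 with a fold above 1.5, 695 genes were higher and 551 lower. Leaving out each sample in turn gave 347 to 452 genes higher and 199 to 303 lower (fewest of both without S2), 1 to 2 members called lower and 0 to 1 higher (*Pmaip1* without S6). At an adjusted p under 0.05 with no limit on the fold, it gave 0 to 1 members higher and 2 to 3 lower (3 without S8, 0 higher without S7). The sign of genes near 0 turned: *Bad* was 0.0761 with GC offsets, 0.00076 with protein-coding genes only and between -0.17 and 0.12 with a sample left out, and *Bak1* between -0.0718 (without S1; -0.0014 without S3) and 0.12. The cause of these moves was not tested. Other scalings shifted the log2 fold changes of tested genes by a median of at most 0.0222 in size. No paired analysis was possible because the columns carry no replicate numbers. *Bbc3*, *Bad* and *Bid* had the fewest counts and the widest intervals.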
